A study of Mus musculus with 7 samples.

Results

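The 10 genes described here were each listed because an earlier look at these data had found them high in the tumor of 1 animal and low in those of the others. They were Pdzrn3, Eya1, Cped1, 9530002B09Rik, Thbs1, Dock1, Cpa6, Car10, Fbp1 and Kcnmb2-as. They were found by symbol in the gene tables of the series, which hold 56941 genes. Of the 10 symbols, 9 were found once each, and Kcnmb2-as was not analysed here, since no gene of these tables was matched to it. All 9 passed the filter on low counts that left 20601 genes for testing. Since the genes were chosen by their levels in these same 4 tumors, the differences between animals are given as a description, with no test. The list did not hold up for every gene: 4 of the 9 were at least 8 times higher in 1 animal than in the next, 4 others were highest in 1 animal by a smaller margin, and Fbp1 was not high in 1 animal but low in 1.

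The nuclei came from small cell lung tumors of 4 male mice, taken at endpoint and frozen fresh. The mice were 2 RP animals (RP1 and RP2) and 2 RPC animals (RPC1 and RPC2). All 4 carried floxed Rb1 and Trp53 (fl/fl for each), which inhaled adenoviral Cre deletes in the lung. The RPC animals lacked Casp8 in addition, written as -/- in the labels and made by a conditional allele in the methods of the study. Cre was driven by the CMV promoter, which is active in many cell types. The 7 libraries each pooled nuclei of all 4 animals, and the animal was read from the well of the first barcoding round. The animal was the replicate (n = 2 for each genotype), and the 7 sublibraries and the 2 or 3 wells of an animal only measure technical spread.

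The deposited counts held 32299909 to 72446861 transcripts per animal. After filtering, 8363 to 10853 nuclei remained per animal, with a median of 2223 and 2255 transcripts in the RP animals and of 2767 and 3392 in the RPC animals. Clusters were called tumor-like where no marker list of another cell class was raised, and neuroendocrine markers were not required. This class held 32395 nuclei, which was 82.5% to 86.7% of an animal. These nuclei carried neuroendocrine transcripts in each animal, with Chga, a protein of secretory granules, between 185 and 232 CPM, the counts of a gene scaled to a common total. Rb1, Trp53 and Casp8 were counted per gene and not per deleted exon, so their levels (59.6, 61.5, 89.3 and 66.2 CPM for Casp8) do not check the deletions. Unless stated otherwise, levels are CPM of the summed tumor-like nuclei after TMM scaling, which adjusts the totals for differences in composition between animals. Levels follow the order RP1, RP2, RPC1 and RPC2 throughout.

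The genes belong to different systems. Dock1 activates the small GTPase Rac together with Elmo proteins and acts in cell migration and the uptake of dying cells. Eya1 is a phosphatase and transcriptional coactivator that works with proteins of the sine oculis and dachshund families in organ development, and Pdzrn3 is a ubiquitin ligase with PDZ domains. Thbs1 is a secreted glycoprotein of the extracellular matrix, Cpa6 is a secreted carboxypeptidase, Fbp1 is the fructose bisphosphatase of gluconeogenesis, and Car10 is a carbonic anhydrase relative without catalytic activity that binds neurexins at synapses. Cped1 is named for its cadherin-like and esterase domains.

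On the GRCm39 build used for the files, the genes lie apart. Pdzrn3 (ENSMUSG00000035357) spans chr6:101126570-101354969 and Cped1 (ENSMUSG00000062980) chr6:21985815-22256445. Eya1 (ENSMUSG00000025932) spans chr1:14239167-14380543 and Cpa6 (ENSMUSG00000042501) chr1:10394945-10790170. The others are 9530002B09Rik (ENSMUSG00000023263) at chr4:122583068-122625470, Thbs1 (ENSMUSG00000040152) at chr2:117941974-117957616, Dock1 (ENSMUSG00000058325) at chr7:134272372-134775375, Car10 (ENSMUSG00000056158) at chr11:92988790-93492580 and Fbp1 (ENSMUSG00000069805) at chr13:63012567-63036263. All are annotated as protein-coding. Of the 9 genes, 7 are longer than 40 kb.

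RefSeq promoter entries were found for 6 of the 9 genes. Eya1, Thbs1 and Cpa6 had none. Those of 4 genes are shown, since these genes had the largest gaps between animals or were high together in RP1, and since their upstream sequences differ in kind. Each line gives the 250 bases before the start of the gene on the gene's own strand, 5′ to 3′ (RefSeq, build GRCm38.p6, an earlier build than that of the counts), and capitals mark each CG pair.
Dock1 (chr7:134670437-134670686, plus strand): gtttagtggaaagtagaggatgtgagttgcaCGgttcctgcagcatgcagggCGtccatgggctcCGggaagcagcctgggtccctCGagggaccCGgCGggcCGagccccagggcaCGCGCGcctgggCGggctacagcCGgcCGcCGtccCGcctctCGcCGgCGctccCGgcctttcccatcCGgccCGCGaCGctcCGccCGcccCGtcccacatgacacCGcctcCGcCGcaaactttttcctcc
9530002B09Rik (chr4:122689009-122689258, plus strand): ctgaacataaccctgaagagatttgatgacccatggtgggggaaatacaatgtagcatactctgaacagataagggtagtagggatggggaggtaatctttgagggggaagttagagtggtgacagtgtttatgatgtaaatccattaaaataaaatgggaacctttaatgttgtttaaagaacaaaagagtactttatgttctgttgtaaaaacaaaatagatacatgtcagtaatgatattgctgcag
Pdzrn3 (chr6:101377898-101378147, minus strand): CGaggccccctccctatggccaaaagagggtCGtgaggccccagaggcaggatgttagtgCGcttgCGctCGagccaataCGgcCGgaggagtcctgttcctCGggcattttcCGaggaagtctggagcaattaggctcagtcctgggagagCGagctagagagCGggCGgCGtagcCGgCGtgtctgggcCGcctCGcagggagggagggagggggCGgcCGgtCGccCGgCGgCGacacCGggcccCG
Cped1 (chr6:21985660-21985909, plus strand): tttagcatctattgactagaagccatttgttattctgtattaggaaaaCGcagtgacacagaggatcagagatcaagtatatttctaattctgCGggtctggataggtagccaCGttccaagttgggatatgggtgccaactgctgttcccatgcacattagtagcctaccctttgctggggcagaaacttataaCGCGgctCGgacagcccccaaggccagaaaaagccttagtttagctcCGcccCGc
The window of Dock1 held 29 CG pairs, more than 93.2% of 32536 distinct mouse windows of this length, and that of Pdzrn3 held 25, more than 89.2%. Cped1 had 8, close to the median of 6, and 9530002B09Rik had none. These are properties of the letters only.

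The ratio of the highest to the second highest animal placed the genes among all others. It was computed with 0.5 CPM added to each level, over the 8118 tested genes that reached 20 CPM in an animal. The largest ratio of all belonged to 9530002B09Rik (63.6), the next to Eya1 (15.2), and Dock1 (12.4) and Pdzrn3 (9.89) ranked 4 and 9. Cpa6 (7.47) ranked 14, just under an 8-fold ratio. Thbs1 (3.22), Cped1 (2.86) and Car10 (2.45) ranked 61, 78 and 120, and Fbp1 (1.02) ranked 7165. In all, 12 of the 20601 tested genes (0.0582%) had a ratio of at least 8 with at least 20 CPM, 7 of them with RP1 as the highest animal (0.034%) and 1 with RP2 (0.00485%), 3 with RPC1 (0.0146%) and 1 with RPC2 (0.00485%). The 4 described genes among these 12 had been chosen by the same levels, so nothing is read from their number.

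**Figure D1:**
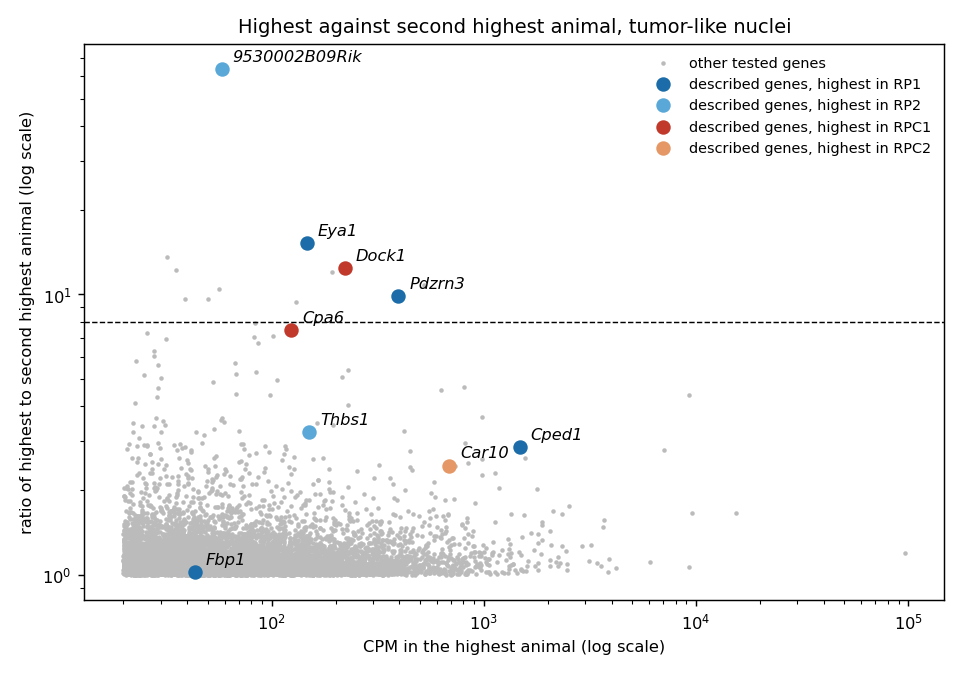
Ratio of the highest to the second highest animal (y axis, log scale, 0.5 CPM added) against the level in the highest animal (x axis, CPM, log scale) for 8118 genes in tumor-like nuclei. Grey points are other genes, large points the 9 described genes colored by their highest animal, and the dashed line is a ratio of 8; 9530002B09Rik, Eya1, Dock1 and Pdzrn3 lie above it, and Fbp1 lies at the floor.

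In RP1, 3 genes were high together. Pdzrn3 had 396, 27.8, 5.67 and 39.6 CPM, so RP1 stood far above the others. RPC1 lay apart at the bottom, 4.90 times below RP2. Eya1 had 146, 9.13, 2.50 and 8.57 CPM, 16.0 times more in RP1 than in RP2, again with RPC1 lowest. Cped1 was an abundant transcript in all 4 tumors, with 1479, 516, 239.7 and 244 CPM. It was 2.86 times higher in RP1 than in RP2, and both RPC animals lay within 1.02-fold of each other below the RP animals. The technical spread was small beside these gaps. The 7 sublibraries of RP1 ran from 365 to 427 CPM (before TMM scaling) for Pdzrn3, while the 21 sublibraries of the other animals ran from 4.43 to 46.4 CPM. For Eya1, the 2 wells of RP1 were at 119 and 157 CPM and the 7 wells of the others between 2.34 and 10.3 CPM.

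Shares of nuclei followed the levels. Each nucleus was thinned at random to 1000 transcripts, which left 6424, 6601, 8982 and 8420 tumor-like nuclei and dropped 742, 718, 115 and 393 shallower ones in the same order of animals. All intervals are exact binomial 95% intervals and cover counting error only. A Pdzrn3 transcript was seen in 25.5% (24.5 to 26.6) of thinned RP1 nuclei and in 2.27%, 0.612% and 3.19% of those of the other animals. For Eya1 the shares were 12.6% (11.8 to 13.5) in RP1 and 0.621%, 0.234% and 0.760% elsewhere. Without thinning, 42.3% of RP1 nuclei held Pdzrn3 and 28.5% held Eya1. Among macrophage- or monocyte-like nuclei of RP1, which served as a class of other origin, 3 of 80 (3.75%) held Pdzrn3 and 4 of 80 (5.00%) held Eya1 after thinning, at a median depth of 2348.5 transcripts against 2647 in the tumor-like nuclei.

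RP1 was not uniform. Its tumor-like nuclei fell mainly into 3 clusters, and the 3 genes went down the same steps over them. In cluster 3 (3068 nuclei) Pdzrn3 had 787 CPM and Eya1 301 CPM, in cluster 5 (2620 nuclei) 243 and 86.1 CPM, and in cluster 0 (1064 nuclei), which held most of RP2, 63.1 and 14.8 CPM. Cped1 was seen in 88.3%, 42.7% and 22.3% of the thinned nuclei of these clusters. Car10 followed another order, with 47.1 CPM in cluster 3, 384 CPM in cluster 5 and 115 CPM in cluster 0. The clusters were built from all genes, these included, so the steps are a description. In cluster 0, the RP2 nuclei (7058) had 27.5 CPM of Pdzrn3 and 8.95 CPM of Eya1, closer to the RP1 nuclei of that cluster than the animals were as wholes.

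Co-detection in single nuclei showed the same division. In RP1, 382 thinned nuclei held both Pdzrn3 and Eya1, where the product of the 2 shares gives 207, a ratio of 1.84. The ratio was 1.51 for Eya1 and Cped1 and 1.43 for Pdzrn3 and Cped1. Within cluster 3, Pdzrn3 and Eya1 met in 340 nuclei against 312 given by the product, a smaller excess. Pdzrn3 and Cped1 met there in 1092 nuclei against 1086. Cped1 was in 88.3% of the thinned nuclei of cluster 3, which left little room for an excess with it. Within cluster 5 the excesses remained, with 41 nuclei against 16.8 for the first pair and 208 against 139 for the second. Eya1 and Car10 met less often than the product over RP1, in 45 nuclei against 133 (a ratio of 0.338, the lowest of the 21 RP1 pairs with a product of at least 10 nuclei).

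**Figure D2:**
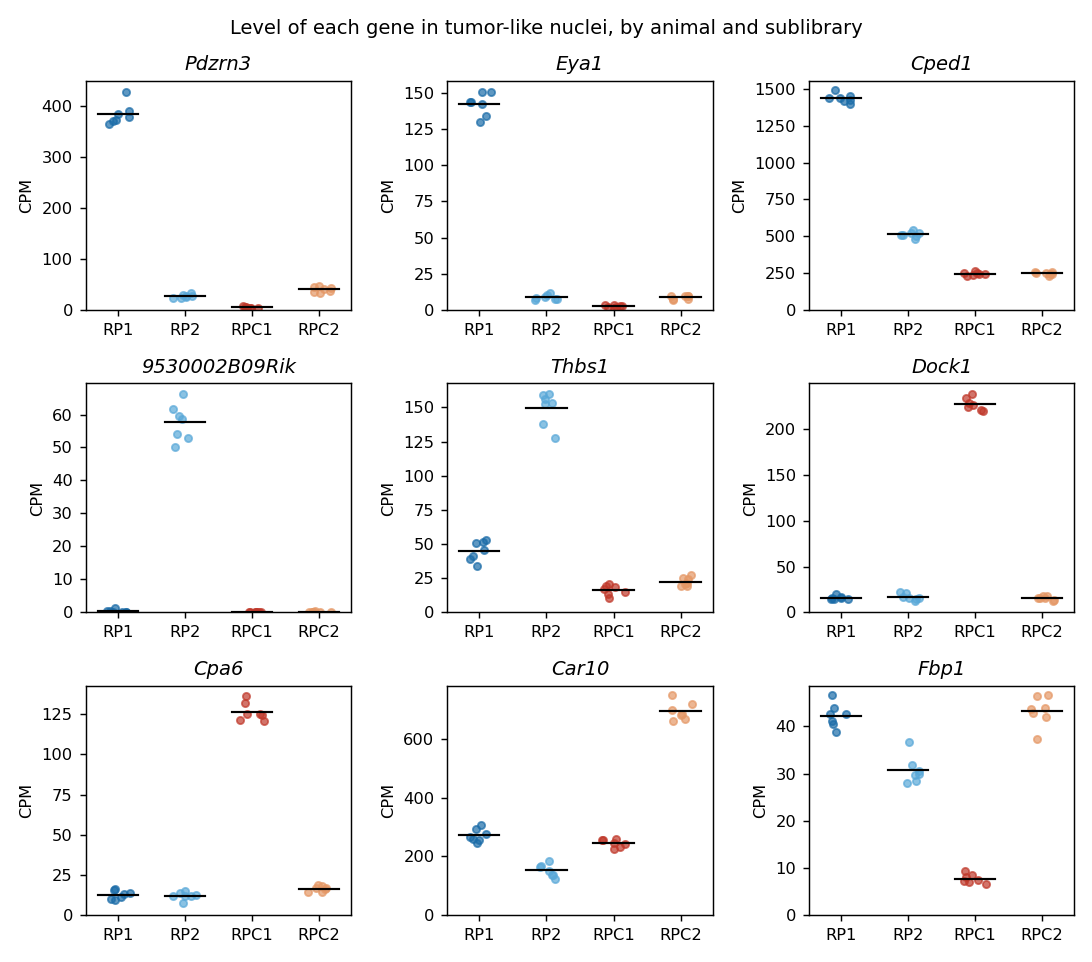
Level of each gene (y axis, CPM before TMM scaling) in the tumor-like nuclei of each animal (x axis). Each point is 1 of 7 sublibraries and each line their mean; the sublibraries of the highest animal lie above all others for 8 of the genes, while for Fbp1 those of RP1 and RPC2 overlap and RPC1 lies lowest.

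Among the listed partners and relatives of Eya1, 3 of 9 were highest in RP1 and at least 2-fold above the mean log2 level of the other 3 animals, a step that 2.56% of tested genes reached in RP1. Dach2, a cofactor of the dachshund family, had 112, 43.2, 8.55 and 5.02 CPM. Dach1 had 88.4, 31.2, 42.5 and 52.4 CPM, and Six5 was near the floor in all animals (2.42 CPM in RP1). Six4, a DNA-binding partner of Eya1, showed no such gap, with 87.3, 63.6, 84.6 and 67.8 CPM. Eya2 lay the other way, lowest in RP1 (6.04 CPM) and 13.6 to 34.0 CPM in the others. None of the 5 genes listed beside Pdzrn3 passed that step: Pdzrn4, its closest relative, had 65.1, 39.5, 29.1 and 53.9 CPM. The lists were written with earlier results of these data known.

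In RP2, 9530002B09Rik was the gene nearest to an on-off pattern. Its summed transcripts were 12, 1719, 6 and 8, or 0.422, 58.1, 0.109 and 0.151 CPM, which is 138 times more in RP2 than in RP1 without an added offset. The counting interval of RP1 ran from 0.218 to 0.736 CPM and that of RP2 from 55.4 to 60.9 CPM. After thinning, 5.88% (5.32 to 6.47) of RP2 nuclei held it, and 2 of 6424 RP1 nuclei did. In RPC1 there were 0 of 8982 nuclei, which by the limit of 3 counts allows up to 0.033% at the thinned depth, and in RPC2 0 of 8420, which allows up to 0.036%. Without thinning the gene was in 0.066% and 0.091% of the nuclei of these animals and in 15.4% of those of RP2. Of the other nuclei of RP2 after thinning, 0 of 152 macrophage- or monocyte-like ones held it, which allows up to 1.97%, and 5 of 113 endothelial-like ones did (4.42%), at median depths of 2291.5 and 3252 transcripts against 2554. Before thinning, the 177 macrophage- or monocyte-like nuclei of RP2 had 2 transcripts of it (4.53 CPM without TMM scaling). Both wells of RP2 held it, at 48.1 and 68.5 CPM, and all 7 sublibraries did, at 50.2 to 66.1 CPM.

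The genes around 9530002B09Rik on chromosome 4 stood apart as well, but in both RP animals. Of 22 tested genes within 1 Mb, 12 were at least 2-fold above the mean log2 level of the other 3 animals in RP2, where 1.95% of tested genes were, and their median log2 gap was 1.06 against 0.03 for the chromosome. Set against the mean log2 level of the 2 RPC animals alone, 13 of the 22 were at least 2-fold higher in RP2 (3% of all tested genes) and 13 were so in RP1 (3.91%), 10 of them in both. Mycl, a transcription factor of the Myc family, had 54.3, 71.7, 6.47 and 10.4 CPM. Cap1, a regulator of actin, had 598, 435, 42.5 and 53.0 CPM, and Pabpc4, which binds poly(A) tails, had 557, 349, 23.4 and 34.6 CPM. Ppt1, Trit1 and Ppie followed them, each higher in RP1 than in RP2. So these 10 neighbors were higher in both RP animals, while 9530002B09Rik was high in RP2 only.

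Which genes were raised further out differed between RP1 and RP2. Within 3 Mb lay 71 tested genes. In RP1 19 of them and in RP2 22 were at least 2-fold above the RPC animals, beside 3.91% and 3% of all tested genes. Foxo6 and Meaf6, at -2459 and 2396 kb, passed that step in RP1 only (1.23 and 1.03 on the log2 scale, 0.55 and 0.53 in RP2). Macf1, a cytoskeletal linker on the far side of Pabpc4, had 602, 1569.9, 463 and 531 CPM, 1.66 on the log2 scale above the RPC animals in RP2 and 0.28 in RP1. On the near side of the chromosome, at -1758 to -1580.5 kb from the start of 9530002B09Rik, Smap2, Zmpste24, Col9a2 and Rlf were raised in RP2 by 2.60, 2.56, 1.72 and 1.67 on the log2 scale and in RP1 by 0.41, 0.13, 0.03 and 0.57. Zmpste24, a protease that processes lamin A, had 42.1, 229, 35.4 and 41.7 CPM. Bmp8a, a growth factor gene beside Pabpc4, was at 4.74, 10.2, 1.08 and 1.49 CPM. DNA was not measured in these libraries.

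**Figure D3:**
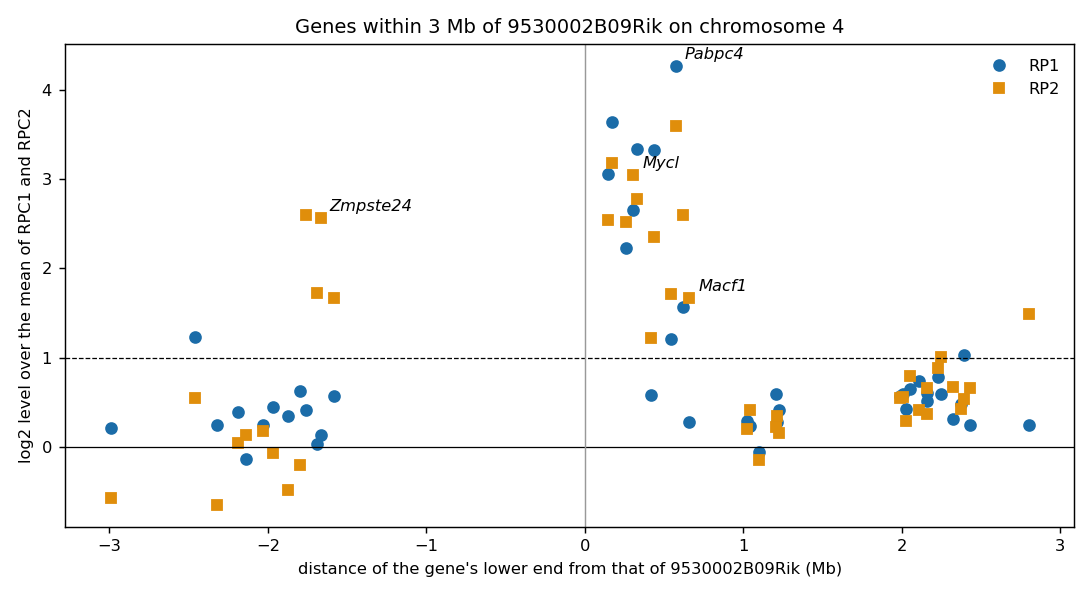
Log2 level over the mean of RPC1 and RPC2 (y axis) of the 44 genes within 3 Mb of 9530002B09Rik that reach 5 CPM in an animal, against the distance of their start coordinate from its own (x axis, Mb). Circles are RP1 and squares RP2, and the dashed line is a 2-fold difference; most genes just above 0 Mb, up to Pabpc4, lie above the line in both animals, and the genes near -1667 kb (Zmpste24) and Macf1 in RP2 only.

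Thbs1, the second gene of RP2, had 46.4, 151, 16.0 and 22.2 CPM. RP2 was 3.25 times above RP1, and both RP animals lay above both RPC animals. Its sublibraries ran from 127 to 160.0 CPM in RP2 and reached 52.9 CPM elsewhere. After thinning it was in 3.66%, 10.3%, 1.18% and 1.63% of nuclei, beside 8 of 152 (5.26%) macrophage- or monocyte-like nuclei of RP2. High levels were not confined to RP2 in the clusters. A group of 281 RPC2 nuclei in cluster 0, the cluster of RP2, had 158 CPM, against 6.61 to 29.8 CPM in the 3 main clusters of RPC2. In RP1 nuclei of cluster 0 it had 74.3 CPM. After thinning it was in 5.56% and 5.34% of these RPC2 and RP1 nuclei, beside 10.2% of the RP2 nuclei of cluster 0. In RP2, Thbs1 and 9530002B09Rik met in 26 thinned nuclei where the product of their shares gives 40.0, a ratio of 0.650. The direction depended on depth, with a ratio of 0.869 after thinning to 2000 transcripts and of 1.33 without thinning. Of its relatives and receptors (Thbs2, Thbs3, Thbs4, Comp, Cd47 and Cd36), none of 6 was 2-fold higher in RP2. The 26 tested genes within 1 Mb of it held none either.

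In RPC1, Dock1 and Cpa6 were high. Dock1 had 16.5, 17.3, 221 and 15.3 CPM, 12.8 times more in RPC1 than in RP2, and the other 3 animals lay together between 15.3 and 17.3 CPM. The 3 wells of RPC1 ran from 222 to 237 CPM, and the 6 wells of the others from 14.0 to 19.8 CPM. Cpa6 had 13.1, 12.1, 123 and 16.1 CPM, 7.68 times more than in RPC2. Its sublibraries ran from 121 to 136 CPM in RPC1 and from 7.66 to 18.5 CPM elsewhere. After thinning, Dock1 was seen in 18.6% (17.8 to 19.4) of RPC1 nuclei and in 1.19% to 1.47% of the others, and Cpa6 in 9.65% (9.05 to 10.3) and 1.08% to 1.59%. None of 119 thinned macrophage- or monocyte-like nuclei of RPC1 held Cpa6, which allows a share of up to 2.52% at the thinned depth (the limit of 3 counts). Without thinning 7.44% of this class held it, against 25.4% of the tumor-like nuclei, at a median depth of 3683 transcripts against 3415.5 in the tumor-like nuclei. Dock1 was in 28.6% of these macrophage- or monocyte-like nuclei, so this class does not lack it.

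Both genes were spread over the clusters of RPC1. Dock1 had its highest level, 269 CPM, in cluster 1 (6515 nuclei) and its lowest, 149 CPM, in cluster 11 (572 nuclei), and Cpa6 was between 84.6 and 142 CPM. They met in 173 thinned nuclei against 161 given by the product of their shares (a ratio of 1.07). The ratio was 0.97 within cluster 1 and 1.43 within cluster 8 (44 nuclei against 30.8), and over RPC1 without thinning it was 1.34. Dock1 was also present outside RPC1: 226 RP1 nuclei of cluster 7 had 174 CPM, where the other RP1 clusters had 7.82 to 16.5 CPM. These nuclei came from both wells and all 7 sublibraries of RP1. They held 68 of the 469 Dock1 transcripts of RP1 (14.5%) with 1.33% of its transcripts, and 44 of the 226 had at least 1. Without them RP1 was at 13.9 CPM (before TMM scaling). Cpa6 had 23.0 CPM there, within the 9.66 to 32.1 CPM of the other RP1 clusters.

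The partners of Dock1 did not share its gap. Elmo1, Elmo2 and Elmo3, with which it forms the Rac activator, differed between RPC1 and the mean log2 level of the others by 0.19, -0.12 and 0.14 on the log2 scale, and Rac1 by -0.04. Of its family, Dock2 and Dock3 lay lower in RPC1, at -1.58 and -1.46 (Dock3 had 95.3, 212, 74.0 and 424 CPM), and Dock4 and Dock5 differed by -0.24 and 0.46. None of 10 listed genes was 2-fold higher in RPC1, where 3.12% of tested genes were. For Cpa6, none of 3 tested relatives was. Insyn2a, which lies within Dock1, was the only 1 of its 10 neighbors past that step, at 1.28 CPM in RPC1. Of the 16 neighbors of Cpa6, only Prex2 (3.51, 4.87, 11.5 and 9.04 CPM) was.

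In RPC2, Car10 was high by a smaller margin. It had 280.1, 153, 238 and 687 CPM, 2.45 times more in RPC2 than in RP1, and was well expressed in all 4 tumors. The 7 sublibraries of RPC2 ran from 663 to 749 CPM and the others reached 307 CPM. After thinning it was in 16.4%, 10.1%, 17.5% and 39.8% of nuclei, beside 15 of 94 (16.0%) macrophage- or monocyte-like nuclei of RPC2, and without thinning in 60.6% of RPC2 nuclei. Fbp1 had 43.6, 31.0, 7.50 and 42.8 CPM, so RP1 and RPC2 lay within 1.02-fold and the gap was at the bottom: RPC1 was 4.14 times below RP2. The order of RP1 and RPC2 changed with the scaling. After thinning, Fbp1 was seen in 4.11%, 3.01%, 0.779% and 4.50% of nuclei. Fbp2, the muscle relative next to Fbp1, was low in all animals (2.04, 0.947, 0.347 and 1.13 CPM), and Pck1 and Pck2, other enzymes of gluconeogenesis, differed by 0.11 and -0.34 on the log2 scale between RP1 and the mean of the others.

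Within RPC2, Fbp1 and Car10 rose over the same 3 clusters. Fbp1 had 22.0, 41.0 and 122 CPM and Car10 402, 725 and 1423 CPM in clusters 2 (3524 nuclei), 4 (2718 nuclei) and 7 (2084 nuclei). The 226 RP1 nuclei of cluster 7 had 97.1 and 1226 CPM, the highest values of both genes in RP1. Both genes were among the leading genes of cluster 7, and the clusters were built from all genes, these included. High values in nuclei placed there are therefore a description and no second observation. Both genes met in 229 thinned RPC2 nuclei against 151 given by the product (a ratio of 1.52). Within clusters 7, 4 and 2 the ratio was 1.14, 1.17 and 1.66, the last from 23 nuclei against 13.8. None of 6 listed partners of Car10 was 2-fold higher in RPC2, where 1.93% of tested genes were, and none of its 18 neighbors was.

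**Figure D4:**
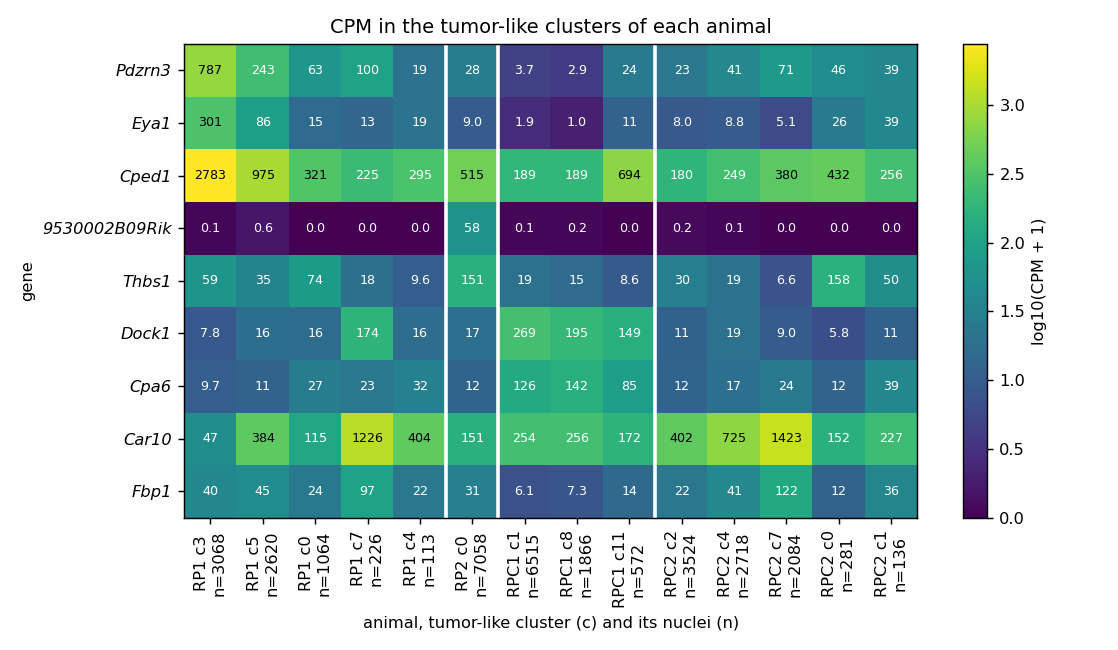
CPM of each gene (rows) in each tumor-like cluster with at least 100 nuclei of an animal (columns, white lines between animals); color is log10(CPM + 1) and the number in a cell is the CPM. Pdzrn3, Eya1 and Cped1 peak in RP1 cluster 3, Car10 and Fbp1 peak in cluster 7 of RPC2 and RP1, and Dock1 is high in the RPC1 clusters and in RP1 cluster 7.

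The other nuclei of the same lungs showed which of the genes the lung uses outside the tumor. Classes were read where an animal had at least 50 nuclei of a class, in 19 pairs of class and animal, and their levels are CPM without TMM scaling. Tumor RNA is carried over into such nuclei: the median of 14 neuroendocrine markers was 18.4% to 76.4% of its tumor-like level there, so a gene at or below the share of these markers in the same nuclei is not read as expressed there. These names were rebuilt from marker genes and doublets were not called, so part of each class may be mixed nuclei.

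Dock1 was higher in the other classes than in the tumor of the same animal in 18 of 19 pairs. Endothelial-like nuclei had 806, 342, 711 and 754 CPM in the 4 animals, in which the tumor-like nuclei had 16.0, 17.1, 227 and 15.5 CPM. Alveolar type 2-like nuclei had 644 CPM in RP2 and 662 CPM in RPC2, club-like nuclei 357 to 475 CPM, and macrophage- or monocyte-like nuclei 217 to 326 CPM. The exception was the 68 B cell-like nuclei of RP1, with 0 transcripts, which allows up to 33.8 CPM. After thinning, 63.3% (49.9 to 75.4) of 60 endothelial-like nuclei of RP1 held Dock1 against 1.31% of its tumor-like nuclei. So Dock1 in RPC1 tumor-like nuclei lay below its level in the endothelial-, club- and macrophage-like nuclei of the same animal, and the other 3 tumors lay below the endothelial- and macrophage-like nuclei of their own animals.

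Pdzrn3 and Eya1 each had a different class. Smooth muscle- or pericyte-like nuclei had 872, 1229 and 741 CPM of Pdzrn3 in RP1, RP2 and RPC1, against 384, 27.5 and 5.82 CPM in the tumor-like nuclei. Fibroblast-like nuclei of RPC2 had 797 CPM and alveolar type 1-like nuclei of RPC2 450.3 CPM. Eya1 was highest in club-like nuclei, secretory cells of the airway, with 149, 241 and 226 CPM in RP2, RPC1 and RPC2, whose tumor-like nuclei had 9.03, 2.56 and 8.67 CPM. In RP1, endothelial-like nuclei had 63.6 CPM, 44.9% of the tumor-like level beside 40.3% for the neuroendocrine markers, and smooth muscle- or pericyte-like nuclei had 92.1 CPM, 65.0% beside 69.9%. Macrophage- or monocyte-like nuclei lay below the markers (22.3% beside 31.8%) and B cell-like nuclei above them (47.7% beside 27.4%, from 6 transcripts). In RPC1, 22.0% (16.9 to 27.9) of 236 thinned club-like nuclei held it. The level of Eya1 in RP1 tumor-like nuclei (142 CPM) was thus near that of club-like nuclei of the other animals, and RP1 itself had too few club-like nuclei (15) to compare.

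**Figure D5:**
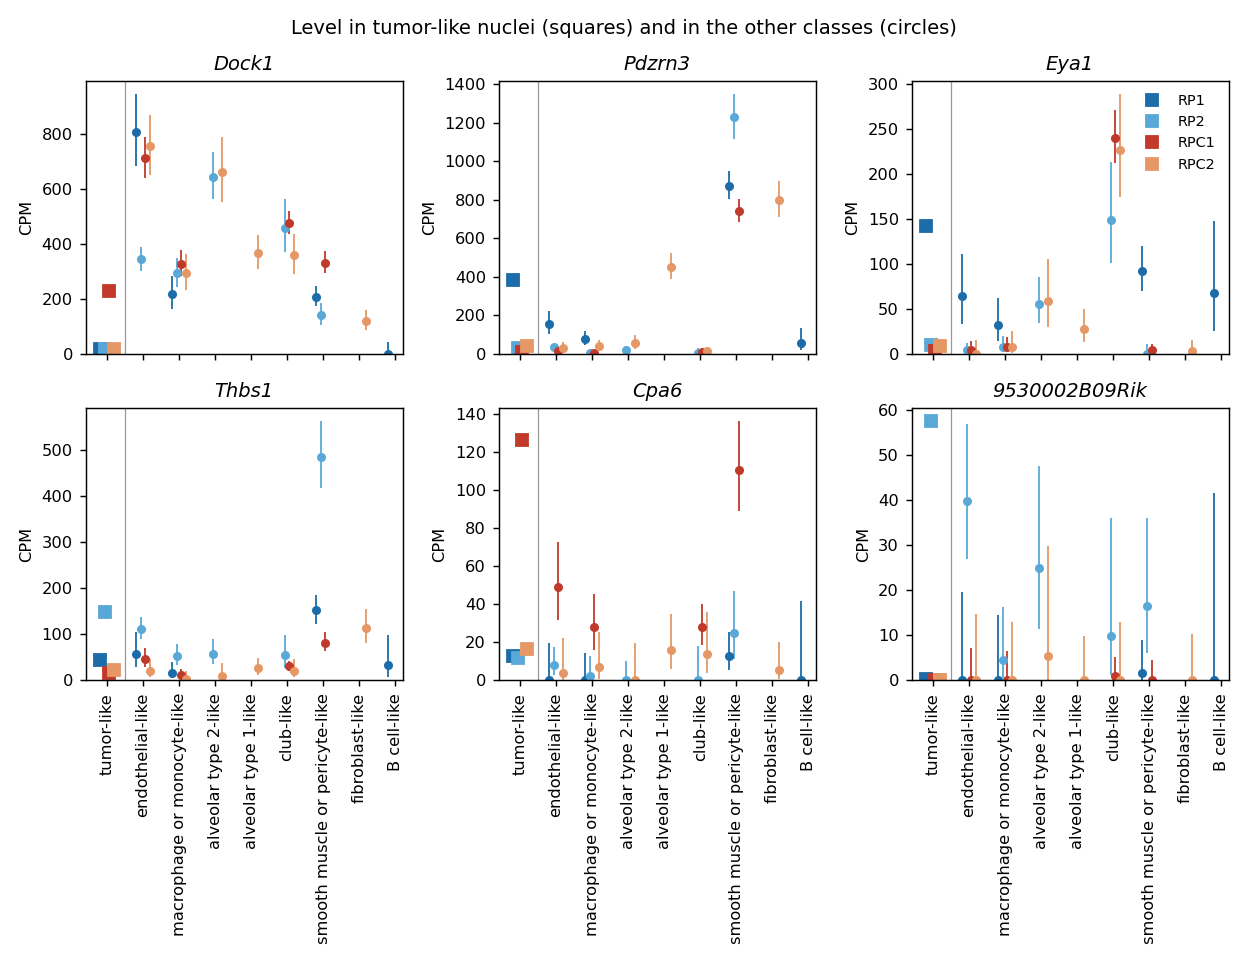
CPM before TMM scaling (y axis) of 6 genes in tumor-like nuclei (squares) and in the other classes with at least 50 nuclei (circles, with exact 95% Poisson intervals), colored by animal. Dock1 is high in nearly all other classes of every animal, Pdzrn3 in smooth muscle- or pericyte-like and fibroblast-like nuclei, Eya1 in club-like nuclei, while Cpa6 and 9530002B09Rik have their highest values in the animal whose tumor has them.

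Thbs1 was also highest in smooth muscle- or pericyte-like nuclei, with 152, 486 and 82.2 CPM in RP1, RP2 and RPC1, the order of its tumor levels (45.0, 149 and 16.4 CPM). Cped1 had 919 CPM in alveolar type 1-like and 555 CPM in fibroblast-like nuclei of RPC2, above the 247 CPM of the tumor-like nuclei there. Fbp1 and Car10 were below their tumor level in all 19 pairs, but above the share of the neuroendocrine markers in 6 and 4 of them. 9530002B09Rik had 30 transcripts in endothelial-like nuclei of RP2 (39.8 CPM, 69.3% of the tumor-like level, where the neuroendocrine markers were at 76.2%) and 0 in the endothelial-like nuclei of each of the 3 other animals. Cpa6 had 111 CPM in nuclei of the smooth muscle- or pericyte-like class of RPC1. This was 87.6% of its tumor-like level there, beside 76.4% for the neuroendocrine markers. In RP1 this class had 12.9 CPM (8 transcripts, counting interval 5.58 to 25.5), 102% of the tumor-like level beside 69.9%. For RP2 it was 24.8 CPM (9 transcripts, 11.4 to 47.2), 207% beside 64.7%. The point values of Cpa6 thus lay above the share of the markers in this class of each of these animals. The counting intervals of RP1 and of RPC1 (89.0 to 136 CPM) took in the level at that share, and that of RP2 did not. So Cpa6 is not read as expressed in this class of RP1 or RPC1, and in RP2 the reading rests on 9 transcripts.

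Of 46 tested partners or relatives of the 9 genes, 4 were highest in the same animal and at least 2-fold above the others. This was 8.70%, beside 1.93% to 3.12% of all tested genes in an animal, and the median log2 gap of the 46 was 0.15. Of the 4, 3 were listed for Eya1, with Six5 near the floor (2.42 CPM in RP1). The last was Fbp2 (2.04 CPM in RP1), counted although RP1 led RPC2 by only 1.02-fold for Fbp1. For Eya1, Cped1, Thbs1 and Car10, none of the 7, 7, 26 and 18 tested neighbors within 1 Mb was at least 2-fold higher in the animal of the gene. The neighbors with the largest gaps were Kcnb2 (0.31 on the log2 scale) for Eya1, Tspan12 (0.40) for Cped1, Pak6 (0.70) for Thbs1 and Abcc3 (0.86) for Car10. For Pdzrn3, 2 of 8 were, the non-coding Gm33934 and Gm43948, which overlap Pdzrn3 on the other strand and had 1.83 and 2.21 CPM in RP1. For Fbp1 in RP1, 2 of 28 were, Gm48812 (16.3, 11.9, 1.90 and 16.1 CPM, low in RPC1 as Fbp1 was) and Fbp2. Whether counting used the strand is not given in the sources used here, so reads of overlapping genes may not have been told apart.

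Other genes had patterns like these. In RP1, the largest ratios outside the list belonged to Nkain2 (192, 15.6, 14.1 and 11.8 CPM), to Negr1, a neuronal adhesion protein (519.6, 23.3, 47.8 and 22.3 CPM), and to Gm20754. In RP2 they belonged to Gm23119, to the neurofilament gene Nefm (3.97, 27.8, 1.75 and 3.98 CPM) and to Zmpste24 of the region above. In RPC1 they were Elmod1 (1.16, 1.89, 32.1 and 1.72 CPM), 5830444B04Rik and the transcription factor Zfp536. In RPC2 they were Clec14a (1.02, 0.642, 2.44 and 35.6 CPM), Tex14 and the glutamate receptor Gria1 (12.5, 5.68, 12.3 and 86.7 CPM). The ratios of these 12 genes ran from 5.38 to 13.6.

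A pattern of 1 animal can look like a difference between genotypes, so the fits of RPC against RP across all genes are given, with 2 animals each. The quasi-likelihood test of edgeR called 0 of 20601 genes between RPC and RP (0%), with 3070 at an unadjusted p under 0.05, and DESeq2 called 593 of 17608. All 4 animals entered the choice of the genes, so these values describe them. Both RP animals lay on the same side of both RPC animals in 5 of the 9, as they did in 49.9% of all tested genes. Among the 9, 9530002B09Rik had the largest change from RP to RPC on the log2 scale, -7.78 (SE 2.31, edgeR adjusted p 0.294), with a mean of 29.3 ± 40.8 CPM in RP and 0.130 ± 0.029 CPM in RPC (SD, n = 2). Dock1 had 16.9 ± 0.588 and 118 ± 146 CPM (SD, n = 2), a log2 fold change of 2.81 (SE 1.15, edgeR adjusted p 0.342). The SD exceeded the mean in the genotype of the high animal for 9530002B09Rik, Dock1, Cpa6, Pdzrn3 and Eya1. Cped1 and Thbs1 differed more evenly, with log2 fold changes of -2.04 (SE 0.50) and -2.36 (SE 0.57) and an edgeR adjusted p of 0.277 each, and DESeq2 called these 2 and 9530002B09Rik (adjusted p 0.00352, 0.00164 and 0.0222). Car10 had a log2 fold change of 1.09 (SE 0.56) and Fbp1 of -0.57 (SE 0.76), with edgeR adjusted p of 0.406 and 0.744.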

How the data were processed

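Single-nucleus RNA was sequenced from the tumors of 4 mice (2 RP, 2 RPC), pooled in 7 libraries. The authors mapped reads to GRCm39 with Ensembl release 110 and assigned nuclei to animals in the Parse pipeline. Per animal, 1 deposited matrix holds raw counts per nucleus and gene, and 9 columns of the deposited tables of nuclei were not used. The genes and lists were chosen with earlier results of these data known.

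As in the study, nuclei needed at least 300 counts, at most 10% of them mitochondrial, and at most 12000 genes. This left slightly more nuclei than the study states for RP1, RP2 and RPC2. Nuclei were clustered (2000 variable genes, 20 components, Leiden resolution 0.4, leidenalg 0.10.2) and named from 13 marker lists by a rule set after the clusters were seen, and such names may differ from those of the study. No class took in 937 deep nuclei of mixed markers or 2372 unnamed nuclei. No doublets were removed. Summed counts of the tumor-like nuclei of each animal were tested with edgeR 4.0.16 under R 4.3.3 (quasi-likelihood, TMM, filterByExpr, two-sided, Benjamini-Hochberg). The study used DESeq2 (version 1.42.0 here), which was the alternative. The edgeR step was tested on simulated data.

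By rule, the text named the listed genes, partners at least 2-fold higher in the same animal, the 3 neighbors within 1 Mb with the largest log2 gap, the 3 genes with the largest ratio in each animal outside the list, and Rb1, Trp53 and Casp8. Not all neighbors so chosen are printed, and other partners, neighbors and genes within 3 Mb of 9530002B09Rik were named after their values were seen. Positions are from GENCODE M39 (GRCm39), matched by identifier for 20429 of 20601 tested genes. Nothing says that animals were paired. The p-values set a difference between genotypes against the spread between these animals only, which is estimated partly over all genes.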

Additional observations from a re-analysis of the deposited data

How the results depend on the processing

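The count of genes between RPC and RP ran from 0 to 7 with 1 animal left out (7 without RP2, 5 without RPC2, 2 without RP1) and was 593 with DESeq2. It stayed 0 with RLE scaling, no filter or at least 500 counts per nucleus. The 12 genes high in 1 animal only became 42 at 4 times the second animal, 6 with an offset of 5 CPM and 8 over all kept nuclei, and ran from 10 to 28 with 1 animal left out (28 without RP2). Alternatives chosen after seeing the data gave 13 (nuclei of clusters led by their own animal) and 12 (without nuclei above 4 times the median depth). Of 63 alternative ratios of the described genes, 51 kept the highest animal and moved by less than the sublibrary SD. Over all kept nuclei, where other classes add transcripts, the log2 ratio of Dock1 fell to 2.28 from 3.64, that of Pdzrn3 to 2.86 from 3.31 and that of Eya1 to 3.19 from 3.93. With an offset of 5 CPM that of 9530002B09Rik was 3.54 instead of 5.99. With 1 animal left out, the log2 fold change of RPC over RP ran from -0.14 to 3.74 for Dock1 and from -2.29 to 0.20 for Fbp1, each with its sign turned without RPC1. edgeR called 9530002B09Rik without RP1 (adjusted p 0.0146) and Dock1 and Cpa6 without RPC2 (0.0267 and 0.0371). Each of these fits leaves in 1 genotype only the animal for whose high level the gene was listed, assumed to vary like the 2 animals of the other genotype, so the calls restate the choice of genes. Of 16 alternative co-detection ratios, 8 moved beyond their counting interval. Shares of nuclei moved with the thinning depth for all 9 genes. No paired analysis was possible because the labels pair no animals. Intervals from counts leave out the spread between animals.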
